A study of Rattus norvegicus with 12 samples.

Results

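Rgs16, Upp2, Arrdc3, Depp1 and Hykk are 5 genes whose signal was higher in the livers of rats fed either of 2 related drugs than in rats fed a control diet. They were chosen by their intensities in the comparisons of each drug with control, so those values against control are given as a description, with no test. Each was represented by the probe set whose annotation gives that symbol and no other, which was 1 probe set per gene, or 5 of the 19418 probe sets and 5 of 13215 named genes. The data are whole-transcript expression arrays of liver RNA from 12 Sprague Dawley rats, 1 array per rat. For 7 days, 4 rats ate NO-naproxen at 550 mg/kg of diet, 4 ate naproxen at 400 mg/kg of diet and 4 ate the control diet without drug. Naproxen blocks both cyclooxygenase enzymes and is used against pain and inflammation, and NO-naproxen is its nitrooxybutyl ester, which releases nitric oxide. All rats were housed singly with free access to food under a light and dark cycle, per the labels. The sources used here give neither sex nor age nor the hour of tissue collection.

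The 5 genes have separate biochemical roles. Rgs16 encodes a GTPase-activating protein that shortens signalling by the Gi and Gq classes of G protein, and in mouse liver its RNA follows the feeding cycle. Upp2 encodes a uridine phosphorylase, which splits uridine into uracil and ribose phosphate, and its RNA is rhythmic over the day in mouse liver. Arrdc3 encodes an alpha-arrestin, an adaptor that brings ubiquitin ligases of the NEDD4 family to membrane proteins, described for adrenergic receptors in human cells. Depp1 encodes a regulator of autophagy that FOXO transcription factors induce in human cells. Hykk encodes hydroxylysine kinase, which phosphorylates the hydroxylysine set free when collagen is broken down.

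Promoter sequence was at hand for 4 of the 5 genes and is shown because genes with like responses invite a look for shared motifs. The windows below are the 250 bases before the annotated start, 5′ to 3′ on the plus strand, from RefSeq on build GRCr8: chr13:68437870-68438119 for Rgs16, chr3:63681576-63681825 for Upp2, chr2:12872952-12873201 for Arrdc3 and chr4:151583121-151583370 for Depp1. Capitals mark matches to any of 8 motifs searched on both strands.
Rgs16: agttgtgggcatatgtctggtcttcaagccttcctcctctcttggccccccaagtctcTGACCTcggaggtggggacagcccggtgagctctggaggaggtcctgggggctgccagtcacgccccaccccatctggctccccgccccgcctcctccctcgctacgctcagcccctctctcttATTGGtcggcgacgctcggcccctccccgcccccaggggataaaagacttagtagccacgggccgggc
Upp2: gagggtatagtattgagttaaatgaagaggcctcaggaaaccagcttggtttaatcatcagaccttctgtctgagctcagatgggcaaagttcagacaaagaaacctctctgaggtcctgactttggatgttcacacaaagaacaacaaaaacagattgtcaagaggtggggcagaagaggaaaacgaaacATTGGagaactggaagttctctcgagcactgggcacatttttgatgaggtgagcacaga
Arrdc3: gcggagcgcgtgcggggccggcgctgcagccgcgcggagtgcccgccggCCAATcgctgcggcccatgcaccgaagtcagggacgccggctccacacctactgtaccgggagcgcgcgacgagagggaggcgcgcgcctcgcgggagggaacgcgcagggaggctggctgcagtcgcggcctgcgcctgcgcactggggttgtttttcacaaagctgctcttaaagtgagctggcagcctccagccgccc
Depp1: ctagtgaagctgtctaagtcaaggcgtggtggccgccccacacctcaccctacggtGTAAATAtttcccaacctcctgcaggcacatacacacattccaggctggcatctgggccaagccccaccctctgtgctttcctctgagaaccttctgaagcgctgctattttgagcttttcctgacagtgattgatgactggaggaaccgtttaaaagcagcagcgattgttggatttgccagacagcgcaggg
No motif was found in all 4 windows. The most widely shared was the CCAAT box (CCAAT), in the Rgs16, Upp2 and Arrdc3 windows and in 34.3% of the 27457 windows of the same length in the table. Rgs16 held a nuclear receptor half-site (AGGTCA, read as TGACCT on the plus strand), which 13.7% of all windows hold. Depp1 held a forkhead core (TNTTTAC, read as GTAAATA on the plus strand), the kind of element that FOXO factors bind, which 11.5% of all windows hold. The E-box CACGTG, the D-box TTANGTAA, the cAMP response element TGACGTCA, the palindromic glucocorticoid response element and TATAA were not found in these 4 windows, against 5.79%, 2.02%, 1.7%, 0.0328% and 24.1% of all windows. The windows also differed in base composition, with 66.8% G and C for Rgs16, 44.4% for Upp2, 72.4% for Arrdc3 and 53.2% for Depp1, against a median of 52.0% over all windows.

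Values are given as deposited intensities, on a linear scale, and differences on the scale of log2(intensity + 16), which understates the change of dim probe sets. Array medians lay between 89.8 and 118. The interquartile range of the log2 values, here called the spread of an array, averaged 2.36 ± 0.23 with NO-naproxen, 2.34 ± 0.16 with naproxen and 2.10 ± 0.19 in controls (SD, n = 4 each), and the 2 narrowest arrays were control replicates 3 and 4. The liver label held: all 10 measured hepatocyte markers lay above the range of olfactory receptor probe sets, and their summed intensity was 77160 to 90550 with NO-naproxen, 75790 to 83390 with naproxen and 78340 to 87460 in controls. The means of the 5 genes, 8.19 to 11.17 on the log2 scale, also lay above that range, whose upper bound was 6.44. Summed intensities of the 11 measured Kupffer cell and macrophage markers were 5242 to 8320 with NO-naproxen, 5139 to 7381 with naproxen and 4578 to 6817 in controls. The 4 measured endothelial markers summed to 2392 to 3228, 2526 to 3093 and 1770 to 2688 in the same order of diets. The 8 measured stellate cell markers summed to 3530 to 4749, 3543 to 4540 and 2869 to 4315. Median log2 fold changes, NO-naproxen first, were -0.21 and -0.21 for lymphocyte, -0.12 and -0.495 for neutrophil and -0.15 and -0.23 for erythroid markers. They were -0.21 and -0.25 for pancreatic acinar, 0.17 and -0.04 for cholangiocyte and -0.05 and 0.06 for adipocyte markers. All 5 measured neutrophil markers lay within the olfactory receptor range. The Kupffer cell and macrophage, endothelial and stellate lists had medians of 0.35 and 0.22, 0.28 and 0.34, and 0.23 and 0.20. The part of these cell types in the results was not tested. In RNA from whole liver, more cells of a type and more RNA per cell cannot be told apart.

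Rgs16 (Entrez Gene 360857) showed the widest difference of the 5 with either drug. Its intensity was 1981, 2821, 1400 and 2611 in NO-naproxen replicates 1 to 4 and 2796, 3287, 4352 and 1702 in naproxen replicates 1 to 4. In control replicates 1 to 4 it was 1693, 701, 323 and 358. Naproxen replicate 4 stood 0.007 log2 units above control replicate 1, and NO-naproxen replicate 3 stood below it. The groups were thus separate for naproxen and overlapped for NO-naproxen through that 1 control rat. On the log2 scale the means were 11.07 ± 0.45 with NO-naproxen, 11.50 ± 0.57 with naproxen and 9.30 ± 1.08 in controls (SD, n = 4 each). The log2 fold change was 1.77 ± 0.42 for NO-naproxen and 2.20 ± 0.42 for naproxen (SE), or 3.41-fold and 4.60-fold. Among all 19418 probe sets these differences ranked second for NO-naproxen and first for naproxen.

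Upp2 (Entrez Gene 295620) had the next largest differences. It measured 549, 1520, 1710 and 815 in NO-naproxen replicates 1 to 4, and 988, 1814, 1294 and 747 in naproxen replicates 1 to 4, against 650, 228, 223 and 242 in control replicates 1 to 4. Control replicate 1 was again far above the other 3 controls, which lay close together. It lay below every naproxen rat and above 1 NO-naproxen rat, replicate 1. Upp2 averaged 10.04 ± 0.76 with NO-naproxen, 10.18 ± 0.54 with naproxen and 8.31 ± 0.72 in controls (log2, SD, n = 4 each). Its log2 fold changes were 1.74 ± 0.39 for NO-naproxen and 1.88 ± 0.39 for naproxen (SE), 3.34-fold and 3.68-fold.

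Arrdc3 (Entrez Gene 309945) was separate from control with both drugs. The intensities were 2863, 3334, 3132 and 4420 with NO-naproxen and 1988, 3272, 4177 and 2755 with naproxen, replicates 1 to 4 in each. Controls measured 800, 1871, 1153 and 1141. For this gene control replicate 1 was the lowest of all 12 rats, and the control nearest to the drug groups was replicate 2. The log2 means were 11.73 ± 0.27 with NO-naproxen, 11.53 ± 0.45 with naproxen and 10.23 ± 0.50 in controls (SD, n = 4 each), giving log2 fold changes of 1.50 ± 0.26 and 1.30 ± 0.26 (SE) for the 2 drugs, 2.84-fold and 2.46-fold.

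Depp1 (Entrez Gene 500300) measured 414, 426, 292 and 521 with NO-naproxen, 277, 342, 502 and 338 with naproxen and 282, 195, 98.8 and 75.5 in controls, replicates 1 to 4 in each. Control replicate 1 lay just below the lowest NO-naproxen rat and just above the lowest naproxen rat, so that the groups were separate for NO-naproxen and overlapped by 1 rat for naproxen. The log2 fold changes were 1.39 ± 0.31 for NO-naproxen and 1.22 ± 0.31 for naproxen (SE), 2.63-fold and 2.32-fold. Controls varied most, with a log2 SD of 0.79 against 0.33 with NO-naproxen and 0.34 with naproxen (n = 4 each).

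Hykk (Entrez Gene 300723) had the smallest difference and the smallest pooled SD within diets. Its intensities were 594, 884, 565 and 560 with NO-naproxen, 756, 606, 591 and 646 with naproxen and 394, 421, 332 and 270 in controls, replicates 1 to 4 in each. No drug-fed rat overlapped a control rat. The gap between the lowest drug-fed and the highest control rat was 0.40 log2 units for NO-naproxen and 0.47 for naproxen. The log2 fold changes were 0.84 ± 0.19 and 0.86 ± 0.19 (SE), 1.79-fold and 1.81-fold, for NO-naproxen and naproxen.

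**Figure D1:**
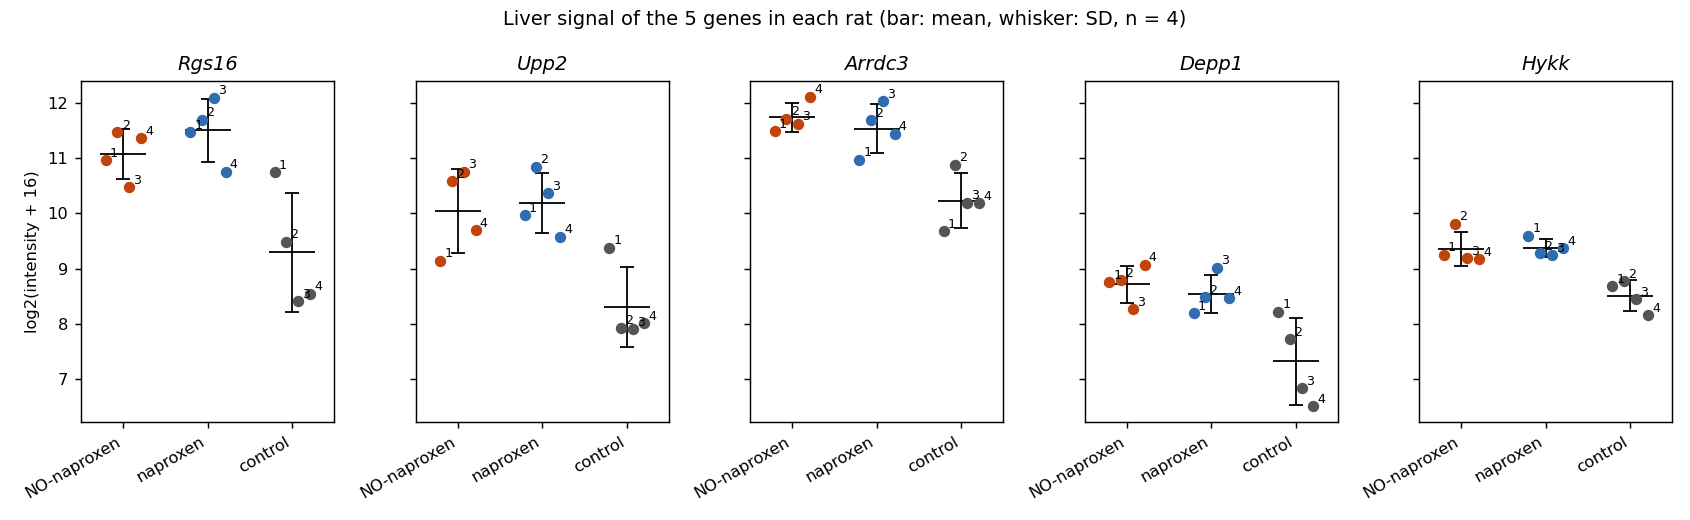
Each point is 1 rat, numbered by replicate, with log2(intensity + 16) on the vertical axis and the 3 diets on the horizontal axis. Bars are means and whiskers SDs of 4 rats. Control replicate 1 is the highest control for Rgs16, Upp2 and Depp1 and the lowest of all 12 rats for Arrdc3. Levels are not comparable between genes.

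Across the 5 genes, 7 of the 10 pairs of gene and drug had every drug-fed rat above every control rat. Over all probe sets this was so for 2% with NO-naproxen and 2.09% with naproxen, and all 5 genes passed the study's own criterion upward, which asks for at least 1.5-fold and a p under 0.05 before adjustment, as 1.78% and 0.875% of all probe sets did. Those shares are background only, since these comparisons chose the genes. After control replicate 1 was left out, a choice made after its values were seen, all 10 pairs were separate. Separation is easier against fewer controls, and its share over all probe sets was not computed for that setting. Without control replicate 1 the log2 fold changes of Rgs16 were 2.25 with NO-naproxen and 2.68 with naproxen. Without control replicates 3 and 4, the narrowest arrays and the lowest 2 of all rats for Rgs16 and Depp1, Rgs16 had log2 fold changes of 0.95 and 1.38, and Depp1 of 0.75 and 0.57, for NO-naproxen and naproxen. Arrdc3 then had 1.46 and 1.25, and Upp2 had 1.39 and 1.53. The size of the Rgs16 and Depp1 differences thus depended on which controls were used.

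With all 12 rats the order of the differences was Rgs16, Upp2, Arrdc3, Depp1, Hykk for both drugs, which share their 4 controls. The order changed with the controls used. Without control replicate 1, Depp1 (1.69 with NO-naproxen and 1.51 with naproxen) stood above Arrdc3 (1.32 and 1.11). Without control replicates 3 and 4, Arrdc3 came first with NO-naproxen and Upp2 with naproxen, by the values above. With all rats, neighbours in this order lay within 2 SE of each other, given as a description. The closest neighbours were Rgs16 and Upp2 with NO-naproxen, whose log2 fold changes differed by 0.03 ± 0.48, and Arrdc3 and Depp1 with naproxen, which differed by 0.08 ± 0.42 (SE). The widest step was from Upp2 to Arrdc3 with naproxen, 0.58 ± 0.61. Between the ends of the order Rgs16 exceeded Hykk by 0.93 ± 0.48 with NO-naproxen and by 1.34 ± 0.48 with naproxen.

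**Figure D2:**
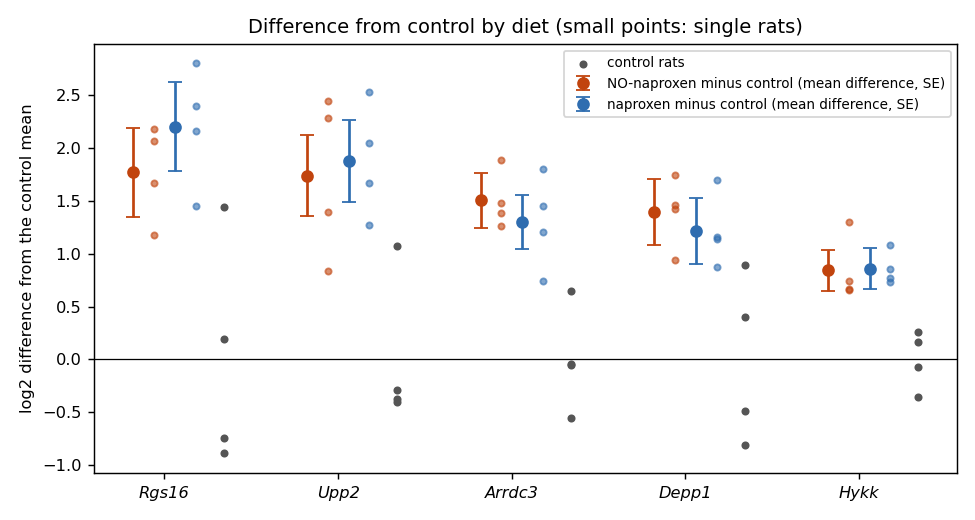
The vertical axis is the log2 difference from the control mean for each gene. Large points with bars are mean differences with their SE for NO-naproxen and naproxen, and small points are single rats, including the 4 control rats. With all 12 rats and shared controls the 5 genes have 1 order for both drugs, from 1.77 and 2.20 for Rgs16 to 0.84 and 0.86 for Hykk, and that order changes when control rats are left out.

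By the study's criterion 62 named genes were higher with both drugs, these 5 among them, and the comparisons share their 4 control rats. Over all probe sets 83, or 0.427%, met it with both drugs. Ranked by the smaller of the 2 log2 fold changes, Rgs16 and Upp2 stood at 1 and 2, Arrdc3 at 5, Depp1 at 7 and Hykk at 15. The clock repressor Nr1d1 and the transcription factor Zbtb16 stood between Upp2 and Arrdc3, with 1.73 and 1.50 for NO-naproxen and 1.72 and 1.86 for naproxen. Of the 62, 15 also had every drug-fed rat above every control rat in both comparisons, as 0.103% of all probe sets did. Besides Arrdc3 and Hykk, the 4 largest of these were Ppargc1a, a coactivator of mitochondrial and fasting genes, at 0.99 and 1.09 (log2 fold change, NO-naproxen first), the dim Spink1 at 0.87 and 0.85, Hyal3 at 0.80 and 0.84, and the lipid phosphatase Lpin2 at 0.77 and 0.79. Phaf1, Fnbp1, Adcy10 and Lcp2 followed, at 0.68 to 0.80 in both comparisons.

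The direct comparison of the 2 drugs was not itself used to choose the genes, but it is the difference of the 2 comparisons that were. A choice of genes higher with both drugs favours genes that differ little between them. None of the 5 passed an adjusted p under 0.05 between NO-naproxen and naproxen in limma (adjusted p = 1.00 for each, over all probe sets). The smallest adjusted p of any probe set was the same, so this value says nothing particular to the 5 genes. Their unadjusted p in limma was 0.321 for Rgs16, 0.721 for Upp2, 0.444 for Arrdc3, 0.582 for Depp1 and 0.928 for Hykk. Over the array, 0% of probe sets passed an adjusted p under 0.05 and 1.92%, or 373, had an unadjusted p under 0.05. Rgs16 had a log2 fold change of -0.43 (95% interval -1.33 to 0.46), so that the NO-naproxen level lay between 0.399 and 1.38 times the naproxen level. Upp2 measured -0.14 (-0.96 to 0.68), Arrdc3 0.20 (-0.35 to 0.75), Depp1 0.18 (-0.49 to 0.84) and Hykk -0.017 (-0.42 to 0.39). The interval was narrowest for Hykk, 0.746 to 1.31 times, and these data do not exclude differences of that size, nor of more than 1.5-fold for the other 4 genes. The doses in the diet were not the same, 550 and 400 mg/kg.

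Within a diet, rats differed from one another in these genes by a pooled log2 SD of 0.75 for Rgs16, 0.68 for Upp2, 0.53 for Depp1, 0.42 for Arrdc3 and 0.25 for Hykk. Whether the same rats were high for several genes was asked of the deviations from the diet means. How the deviations of different genes relate did not enter the choice, though their size enters the p of the study's criterion. Rgs16 and Depp1 deviated together, with Pearson's r = 0.88 over 12 rats (permutation p = 0.00543 from all 13824 rearrangements within diets, 0.0543 after Benjamini-Hochberg adjustment over the 10 pairs). Spearman's rho was 0.86 (permutation p = 0.00246, adjusted 0.0246). Thus the rank correlation passed the adjusted threshold and Pearson's r did not. Without control replicates 1 and 3, the rats farthest from the median for Rgs16, r was 0.78, and after removal of the spread of the arrays it was 0.85 (adjusted p = 0.0839). Control replicate 1 was 1.44 log2 units above its diet mean for Rgs16 and 0.89 for Depp1, naproxen replicate 3 was 0.60 and 0.48 above, and NO-naproxen replicate 3 was 0.60 and 0.45 below.

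Rgs16 and Upp2 had r = 0.55 and rho = 0.59 (permutation p = 0.0931 and 0.0691, adjusted 0.465 and 0.345). Their r was 0.24 without control replicates 1 and 3, the rats farthest from the median for Rgs16. It was 0.19 without control replicate 1 alone, the lowest over single rats left out, and 0.52 without control replicate 3 alone. The highest was 0.78, without NO-naproxen replicate 3. It thus depended most on control replicate 1. After removal of the spread of the arrays r was 0.70 (permutation p = 0.0335, adjusted 0.167). The other 8 pairs had r between -0.18 and 0.44 and adjusted permutation p of 0.704 or more. Arrdc3 varied apart from the other 4 genes in these rats, with r of 0.0040 with Rgs16, -0.18 with Upp2, 0.22 with Depp1 and -0.15 with Hykk. Control replicate 1 weighed on these too: without it, Arrdc3 and Depp1 had r = 0.85 (permutation, adjusted p = 0.026). Hykk was the gene whose deviations most followed the spread of the arrays (r = 0.78, permutation p = 0.0127, adjusted over 5 genes 0.0637; rho = 0.68, permutation p = 0.0404, adjusted 0.193), with r = 0.58 without the 2 rats farthest from the median spread. The other 4 genes had r between -0.13 and 0.47 with the spread. With the spread as a covariate the log2 fold changes of Hykk were 0.58 for NO-naproxen and 0.62 for naproxen.

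**Figure D3:**
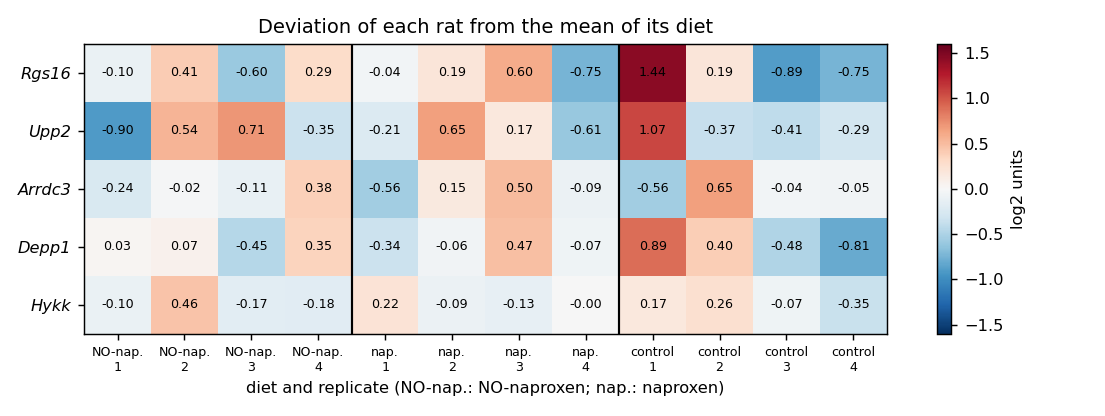
Each cell is the deviation of 1 rat (column) from the log2 mean of its diet for 1 gene (row), with the value printed and coloured in log2 units. Control replicate 1 is 1.44, 1.07 and 0.89 above the control mean for Rgs16, Upp2 and Depp1 and 0.56 below it for Arrdc3.

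The genes with the most similar deviations were sought among 10753 named genes of at least moderate signal, as a description over 12 rats whose arrays share their spread. For Rgs16 these were H6pd, which makes NADPH in the endoplasmic reticulum, with r = 0.90, the syndecan Sdc4 with 0.89 and the ceramidase Acer2 with 0.89. Depp1 had Rgs16 itself first (0.88), then H6pd (0.88) and Sdc4 (0.87). Upp2 had the clock repressor Nr1d1 first, with r = 0.92, then Spring1 (0.90) and the autophagy gene Gabarapl1 (0.89). Arrdc3 was most like the lipid droplet gene Plin1 (0.92), Ppm1j (0.88) and Banf2 (0.86). Hykk was most like Syde2 (0.97), Kdelr1 (0.96) and Prkch (0.96). The genes most opposed were Or51l1 and Krba1 for Rgs16 (-0.94 and -0.93), Gramd4 and Lrrc14 for Upp2 (-0.95 and -0.90), Nr4a2 and Apold1 for Arrdc3 (-0.93 and -0.89), the nucleoside transporter Slc29a1 and Asphd2 for Depp1 (-0.92 and -0.90), and Oscp1 and Dnai2 for Hykk (-0.97 for both). Apart from Rgs16 with Depp1, none of the 5 genes was among the 3 genes most like another.

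Nr1d1 and Upp2 can be compared rat by rat. Nr1d1 measured 257, 988, 1467 and 492 in NO-naproxen replicates 1 to 4, where Upp2 was also lowest in replicate 1 and highest in replicate 3. In naproxen replicates 1 to 4 it measured 539, 770, 892 and 493, against 343, 155, 137 and 166 in control replicates 1 to 4. Among naproxen rats Nr1d1 was highest in replicate 3 and Upp2 in replicate 2, and both were lowest in replicate 4. Control replicate 1 was the highest control for both genes. Igfbp1, an insulin-repressed secreted protein of the fasting liver, was likewise highest among controls in replicate 1, at 3505 against 777 to 1673 in the other 3. NO-naproxen rats measured 1540 to 2666 and naproxen rats 2380 to 3559. Igfbp1 was named after its values were seen. Over the FOXO and fasting-induced genes described below, control replicate 1 deviated from the control mean by -0.47 to 1.61 log2 units, with 1.07 for Igfbp1.

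**Figure D4:**
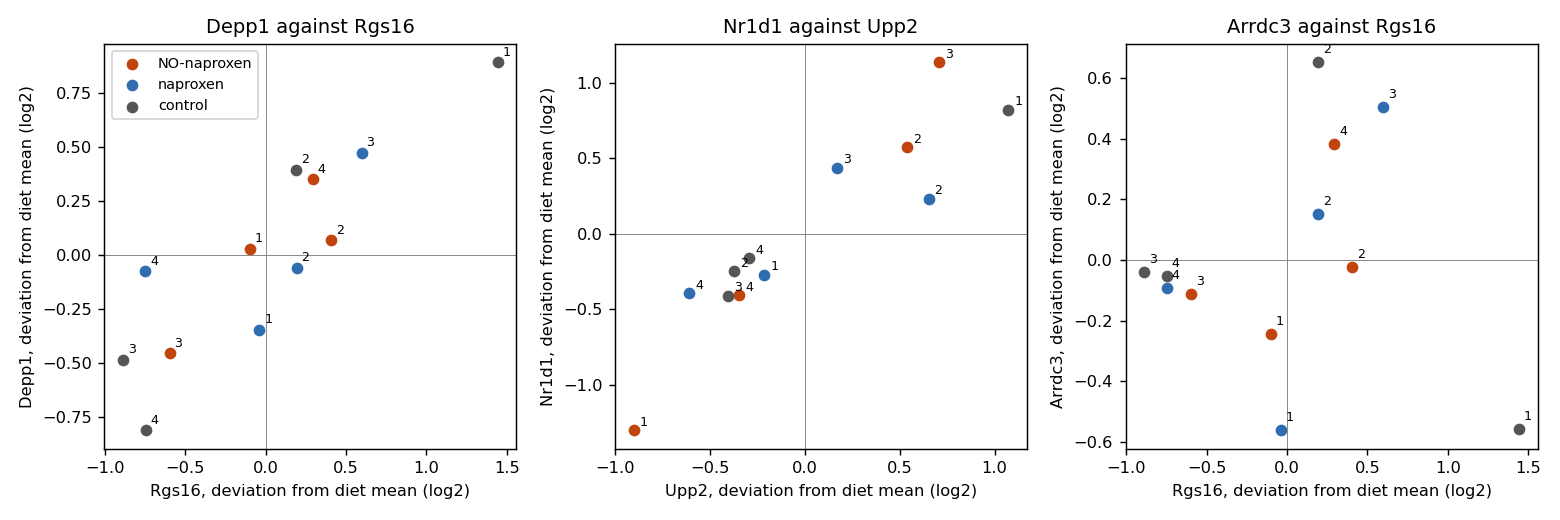
Deviations from the diet mean in log2 units for Depp1 against Rgs16, Nr1d1 against Upp2 and Arrdc3 against Rgs16. Points are rats, coloured by diet and numbered by replicate. The first pair lies along a line (r = 0.88). So does the second (r = 0.92), in which Nr1d1 was picked as the gene most like Upp2 among 10753. The third does not over all 12 rats (r = 0.0040), and its r is 0.675 without control replicate 1.

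Other genes of the pathways around the 5 were described by lists, 152 measured genes in all without the 5. No gene of the lists passed an adjusted p under 0.05 in limma in either drug comparison, as 0% of all probe sets did, while 10.4% of probe sets with NO-naproxen and 12.7% with naproxen had an unadjusted p under 0.05. By the study's criterion 4 of the 152 were higher and 6 lower with NO-naproxen against control, 2.63% and 3.95%, where 1.78% of all probe sets were higher and 2.02% lower. With naproxen 7 were higher and 6 lower, 4.61% and 3.95%, where 0.875% of all probe sets were higher and 4.97% lower. With 12 rats and counts of this size, these shares are a description of the lists.

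Rgs16 was chosen for its large difference, so its close relatives are described by their own values. Of 24 measured RGS proteins and G protein alpha subunits, none passed the criterion with NO-naproxen and 1, Rgs5, did with naproxen, upward. Rgs5, a pericyte gene, measured 0.58 ± 0.20 with NO-naproxen and 0.71 ± 0.20 with naproxen (log2 fold change, SE), with every drug-fed rat above every control. Over all probe sets this was so for 2% with NO-naproxen and 2.09% with naproxen. The same held in other lists for Ppargc1a and Tdo2 with both drugs, Foxo4 and Nedd4 with NO-naproxen, and Aadat and Nr1d1 with naproxen. Rgs18 measured 0.54 ± 0.30 and 0.61 ± 0.30, Gnai3, a Gi alpha subunit, 0.48 ± 0.20 and 0.53 ± 0.20, and Gnao1 0.22 ± 0.18 and 0.45 ± 0.18, in the same order. The list's median was 0.14 with NO-naproxen and 0.08 with naproxen, beside 0.00 and -0.03 over all probe sets.

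None of the 12 measured arrestins, NEDD4-family ligases and adrenergic receptors passed the criterion with either drug. The alpha-arrestins nearest to Arrdc3 measured -0.33 ± 0.23 and -0.44 ± 0.23 (Arrdc2), 0.41 ± 0.27 and 0.47 ± 0.27 (Arrdc4) and 0.30 ± 0.20 and 0.23 ± 0.20 (Txnip, a glucose-responsive arrestin) for NO-naproxen and naproxen (log2 fold change, SE). Of the ligases, Nedd4 measured 0.52 ± 0.19 and 0.22 ± 0.19, with every NO-naproxen rat above every control, as for 2% of all probe sets. Itch measured 0.51 ± 0.20 and 0.38 ± 0.20. The list's median was 0.31 with NO-naproxen and 0.25 with naproxen. The receptor-binding beta-arrestin Arrb2 measured 0.53 ± 0.23 and 0.34 ± 0.23.

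In pyrimidine metabolism, Upp1, the other uridine phosphorylase, measured 0.26 ± 0.23 with NO-naproxen and 0.29 ± 0.23 with naproxen (log2 fold change, SE). Of 25 measured genes of pyrimidine salvage, synthesis and breakdown 1 passed the criterion, downward with both drugs: the nucleoside transporter Slc28a3, a dim probe set, at -0.66 ± 0.31 and -0.82 ± 0.31. Dhodh, an enzyme of pyrimidine synthesis, measured -0.45 ± 0.21 and -0.49 ± 0.21, the mitochondrial thymidine kinase Tk2 0.40 ± 0.17 and 0.36 ± 0.17, and Agxt2, which removes the end product of uracil breakdown, 0.32 ± 0.17 and 0.38 ± 0.17. The list's median was 0.03 with each drug.

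Phykpl, the enzyme that acts after hydroxylysine kinase, measured 0.16 ± 0.20 with NO-naproxen and 0.10 ± 0.20 with naproxen (log2 fold change, SE). None of the 17 measured genes of lysine and hydroxylysine breakdown passed the criterion. The aminotransferase Aadat measured 0.33 ± 0.16 and 0.43 ± 0.16, the succinyltransferase Dlst 0.33 ± 0.16 and 0.18 ± 0.16, the mitochondrial carrier Slc25a21 0.46 ± 0.22 and 0.37 ± 0.22, and the dim Plod2, which makes hydroxylysine in collagen, 0.54 ± 0.22 and 0.54 ± 0.22. The list's median was 0.14 with NO-naproxen and 0.09 with naproxen.

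For the FOXO and fasting-induced genes to which Depp1 belongs by its known induction, 26 were measured. With NO-naproxen Ppargc1a was past the criterion upward and Pik3ip1, an inhibitor of PI3 kinase, downward at -0.60 ± 0.18, and with naproxen Ppargc1a and Igfbp1 were past it upward. Foxo1 measured 0.17 ± 0.19 and 0.13 ± 0.19, Foxo3 0.42 ± 0.19 and 0.31 ± 0.19, Foxo4 0.52 ± 0.17 and 0.24 ± 0.17, and the insulin receptor gene Insr 0.55 ± 0.20 and 0.35 ± 0.20 (log2 fold change, SE, NO-naproxen first). The list's median was 0.24 with NO-naproxen and 0.20 with naproxen. Of the 16 measured carbohydrate-response genes, a programme that includes Rgs16 in mouse liver, none passed with NO-naproxen and Pnpla3 passed downward with naproxen. Pnpla3 measured -0.48 ± 0.38 and -0.93 ± 0.38, pyruvate kinase Pklr -0.33 ± 0.17 and -0.43 ± 0.17, Acly -0.17 ± 0.17 and -0.43 ± 0.17, and Gpd1 -0.20 ± 0.15 and -0.33 ± 0.15. Their median was -0.08 with NO-naproxen and -0.20 with naproxen.

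Genes of the glucocorticoid list differed in both directions. Of 15 measured, 1 was past the criterion upward (Zbtb16) and 2 downward (Dusp1 and Sgk1) with NO-naproxen, and 3 upward (Zbtb16, Fkbp5 and Tdo2) and the same 2 downward with naproxen. Dusp1, a phosphatase of MAP kinases, measured -1.38 ± 0.28 and -1.39 ± 0.28, the kinase Sgk1 -0.74 ± 0.27 and -0.85 ± 0.27, and the tryptophan-degrading Tdo2 0.50 ± 0.15 and 0.62 ± 0.15, while the receptor Nr3c1 measured 0.46 ± 0.26 and 0.05 ± 0.26 (log2 fold change, SE, NO-naproxen first). Dusp1 was lower in every drug-fed rat than in all 4 controls, as 1.35% of probe sets were with NO-naproxen and 2.4% with naproxen, control replicate 1 included, which measured 2261 against 1834 to 2630 in the other 3. Zbtb16 did not, with 776 in control replicate 1 against 174 to 222 in the other 3. Of 17 clock genes, 2 were higher and 2 lower with NO-naproxen and 1 higher and 2 lower with naproxen. Besides Nr1d1, Per2 measured -0.99 ± 0.31 and -1.42 ± 0.31, Cry1 -0.72 ± 0.25 and -0.74 ± 0.25, Per1 1.01 ± 0.41 and 0.52 ± 0.41, and Dbp -0.26 ± 0.22 and -0.34 ± 0.22. In control replicate 1 Per2 was 126, against 324 to 371 in the other controls, 88.1 to 190 with NO-naproxen and 58.0 to 125 with naproxen.

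**Figure D5:**
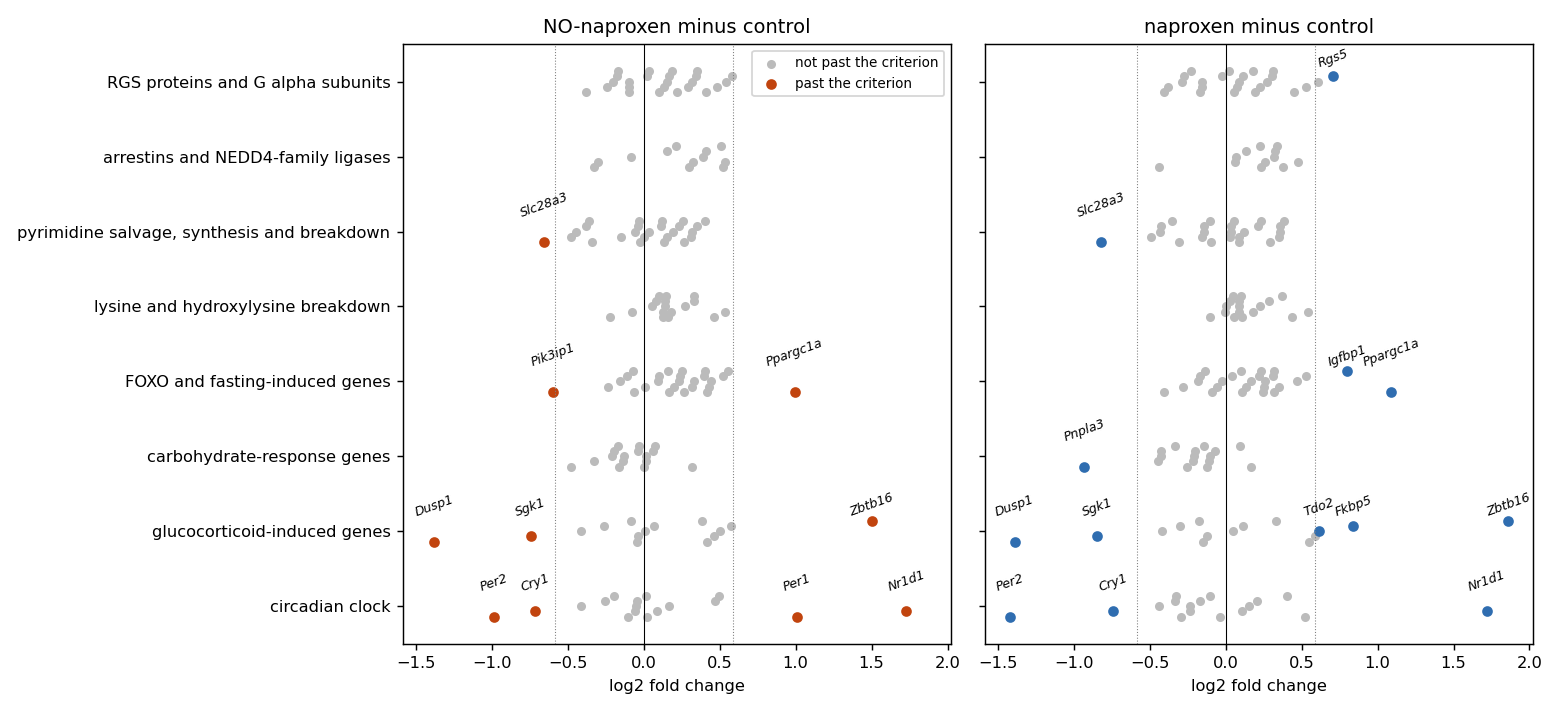
Log2 fold changes of the 152 listed genes against control, NO-naproxen on the left and naproxen on the right, with 1 row of points per list and dotted lines at 1.5-fold. Coloured, named points passed the study's criterion. The named points lie mainly in the glucocorticoid and clock rows, and the arrestin and lysine rows have none.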

How the data were processed

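Per the labels' protocols, ribosomal RNA was depleted from the liver RNA of 12 rats before labelling for Affymetrix whole-transcript arrays. The deposited table holds linear intensities, 1 per probe set. The submitters' processing notes name Affymetrix Expression Console 1.1.1 and rn4. The sources used here do not say how probes were summarised or arrays normalized. Between 5.87% and 11.1% of the intensities per array were under 16, and 16 was added before log2.

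All 12 arrays entered 1 limma 3.58.1 fit (lmFit and eBayes, R 4.3.3, 2-sided) of 3 diet means. The p-values were adjusted by Benjamini-Hochberg over 19418 probe sets. The study's criterion was applied to this fit, in place of the study's own test. Of the probe sets, 13327 carried 1 gene symbol, 620 several and 5471 none. A gene with several probe sets was represented by the brightest. The bound of the olfactory receptor range is the 95th percentile of the means of 970 olfactory and vomeronasal receptor probe sets, and "dim" means at or below it. Correlations between genes used deviations from diet means and all rearrangements of rats within diets. These are exact for the plain deviations and approximate once the spread or a block is removed. Errors of differences between 2 genes come from the per-rat differences of their log2 values.

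Genes were named by rule: the 5 genes, up to 4 of each list with the smallest p in either drug comparison, 11 measured partners or regulators of the 12 listed, up to 10 genes higher and separate with both drugs, and for each of the 5 genes the 3 genes most like it and the 2 least like it, above the 30th percentile of signal. Igfbp1 and Fkbp5 fell outside that rule and were named after their values were seen. The genes and lists were chosen with earlier results of these data known. Steps were tested on simulated data. Figures used matplotlib 3.10.9 in Python 3.11.15.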

Additional observations from a re-analysis of the deposited data

Results flagged for a closer look

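Of 15 groups of 4 rats (5 genes in 3 diets), 2 held a rat far from the other 3, where chance gives about 1 group in 20. Upp2 in control replicate 1 stood apart from the other controls, with a gap of 0.924 of the group's range. Hykk in NO-naproxen replicate 2 stood apart from the other NO-naproxen rats, with a gap of 0.872 of the range. Control replicate 1 was also the highest control for Rgs16 and Depp1, and NO-naproxen replicate 2 had the widest spread of all arrays, 2.62 log2 units.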

How the results depend on the processing

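All 10 log2 fold changes of the 5 genes against control stayed above 0 in each of 23 alternatives, and none of the 5 passed the direct comparison of the drugs in any (adjusted p 0.823 or more). In that comparison Upp2 and Hykk, both near 0, changed sign when single arrays were left out, with ranges of -0.38 to 0.16 and -0.17 to 0.056. The 7 of 10 separate pairs became 7 to 10 when each array was left out, an alternative chosen after seeing the data. The number of arrays and the dimness of many probe sets limit the precision: the median SE of a log2 fold change was 0.21.

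The number of gene pairs correlated within diets was 0, and 1 with an added constant of 64, after median centring, by Spearman's rho and with the replicate number as a block. Leaving out each array gave 0 to 1. That 1 was Rgs16 with Depp1, except without control replicate 1, where it was Arrdc3 with Depp1. Under the replicate block r of Rgs16 with Depp1 was 0.873 (permutation, adjusted p = 0.0188). Without the 2 narrowest arrays it was 0.759 (permutation, adjusted p = 0.382). Without control replicate 3 it was 0.862 (permutation, adjusted p = 0.179). Over the 20 alternatives this correlation ranged from 0.759 to 0.931. The replicate numbers share no litter or day in the labels, so they were not taken as pairs. Of 12 same-numbered pairs of arrays 4 correlated above 0.1 (range -0.38 to 0.48). Differently numbered pairs were not computed beside them. Pairs near 0 changed sign. Rgs16 with Arrdc3 was -4.19e-06 with a constant of 1, -0.065 with the spread as a covariate, -0.074 without the 2 narrowest arrays and -0.165 to 0.675 over single arrays left out. Arrdc3 with Hykk was 0.208 after median centring and -0.52 to 0.032 over single arrays. Depp1 with Hykk was -0.206 without the 2 narrowest arrays. Over single arrays left out, Upp2 with Arrdc3 ranged from -0.351 to 0.199 and Upp2 with Depp1 from -0.157 to 0.5.

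Counts over all probe sets moved most. Higher by the criterion with NO-naproxen were 346, but 103 with a constant of 64, 632 after median centring, 144 with the spread as a covariate, 139 without the 2 narrowest arrays, 1043 with array weights and 106 to 1022 over single arrays. Lower were 392, but 51 with the constant of 64, 92 with the spread, 76 without the 2 narrowest arrays, 1484 with array weights, 212 without the dimmest 30% and 176 to 1630 over single arrays. With naproxen 170 were higher, but 289 and 51 with constants of 1 and 64, 371 after quantile normalization, 463 after median centring and 123 to 463 over single arrays. Lower were 965, but 140 with the constant of 64, 603 after quantile normalization, 483 after median centring, 193 with the spread, 177 without the 2 narrowest arrays, 606 without the dimmest 30% and 417 to 2510 over single arrays. The listed genes past the criterion were 10 with NO-naproxen, but 16 after median centring, 16 with array weights, 4 without the 2 narrowest arrays and 7 to 21 over single arrays. With naproxen they were 13, but 6 without the 2 narrowest arrays and 11 to 20 over single arrays. Past the adjusted threshold were 0 to 4 with NO-naproxen and 0 to 3 with naproxen over single arrays, and 2 with NO-naproxen under array weights. The cause was not tested. The mean over several probe sets was not run, since each of the 5 genes has 1.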
